A study of Rattus norvegicus with 6 samples.

Results

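The 8 genes described here encode regulators of the roof plate and of the dorsal progenitor domains of the neural tube. They are Lmx1a, Lmx1b and Wnt1 of the roof plate and Msx3, Olig3, Atoh1, Gsx1 and Gsx2 of the dorsal progenitors. They were chosen by name, for their place in dorsal patterning and with earlier results of these data known, and each of the 8 symbols matched 1 row of the authors' array table, among 20258 named rows that cover 19634 gene symbols. Each row is a set of probes for 1 transcript, and its value is a log2 expression level normalized by the authors.

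The study measured RNA by array in flow-sorted cells labelled neuroepithelial progenitors, from rat (Rattus norvegicus) embryos of stage E10.5. The 3 retinoic acid samples came from embryos whose mothers were dosed by gavage with 60 mg/kg of all-trans retinoic acid dissolved in olive oil. The 3 control samples came from embryos whose mothers received the oil alone. Every sample is a pool of biological replicates. The sources used here do not state how many embryos or litters went into a pool, the rat strain, the sorting gate, or the time from dose to collection. The groups also differed in the ERCC spike-in mix, mix 2 in the retinoic acid pools and mix 1 in the controls.

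The roof plate is a strip of non-neuronal cells along the dorsal midline of the neural tube that secretes BMP and Wnt proteins. These signals set up an ordered series of progenitor domains beside it, each marked by its own transcription factors and each the source of a class of dorsal interneurons. Olig3 and Atoh1 belong to the domains nearest the roof plate, and Gsx1 and Gsx2 to domains farther from it. Retinoic acid made by the neighbouring mesoderm is one of the signals to which the early neural tube responds, and its excess is a known cause of neural tube defects.

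Olig3 and Lmx1a were higher after retinoic acid, by a factor of about 1.24 and 1.22, and none of the 8 genes was called lower. A difference is described as called where limma, after Benjamini-Hochberg adjustment across the 20258 named rows, gave an adjusted p under 0.05. Thus 2 of 8 genes were called, both higher, where 9.75% of all tested rows were called, 7.69% higher and 2.06% lower. The median difference of the 8 genes was 0.04 log2 units, against 0.03 over all tested rows. At an unadjusted p under 0.05 there were 3 genes, Olig3, Lmx1a and Lmx1b, the last of these lower, where 22.0% of all tested rows had such a p. The groups did not overlap in 5 of the 8 genes, 3 higher and 2 lower, where 26.0% of all tested rows did not overlap, 19.0% higher and 6.95% lower.

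The upstream sequences of the pair that rose are shown first, because they are the stretches in which a shared motif could be looked for. They are the 250 bases before the annotated start in RefSeq, build GRCr8, read 5′ to 3′ on the gene's strand, and all 8 genes matched that table. Capitals mark matches to the motifs searched. The Lmx1a stretch lies at chr13:82367683-82367932 (plus strand) and the Olig3 stretch at chr1:15900631-15900880 (plus strand).
Lmx1a: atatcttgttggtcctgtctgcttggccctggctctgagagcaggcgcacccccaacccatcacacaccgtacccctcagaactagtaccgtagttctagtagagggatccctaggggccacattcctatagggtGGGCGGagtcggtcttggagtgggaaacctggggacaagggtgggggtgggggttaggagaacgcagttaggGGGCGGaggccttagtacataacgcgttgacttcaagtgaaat
Olig3: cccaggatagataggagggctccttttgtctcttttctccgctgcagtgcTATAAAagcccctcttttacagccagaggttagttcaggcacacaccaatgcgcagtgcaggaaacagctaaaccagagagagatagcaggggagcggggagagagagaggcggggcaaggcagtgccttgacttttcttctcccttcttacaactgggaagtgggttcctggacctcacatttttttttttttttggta

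The Lmx1a stretch held 2 copies of GGGCGG, the GC box of Sp factors, with first bases 115 and 43 bases before the start. The Olig3 stretch held 1 TATAAA, the letters of a TATA box, with its first base 200 bases before the start. No motif was found in both stretches. Both strands were searched for 7 motifs in the same 250 bases of all 33469 RefSeq promoters. GGGCGG was in 5 of the 8 genes (Lmx1a, Lmx1b, Wnt1, Msx3 and Atoh1) and in 30.5% of all promoters. TATAAA was in 3 (Olig3, Msx3 and Gsx2) and in 12.9%. Its position differed, with first bases 28 bases before the start in Msx3, on the opposite strand, and 29 in Gsx2. AGGTCA, the single site of nuclear receptors such as the retinoic acid receptors, was in Msx3 and in 14.1% of promoters. Its direct repeat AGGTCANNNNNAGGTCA, in the spacing bound by retinoic acid receptor dimers, overlaps the single site by construction. The repeat was in none of the 8 genes and in 3 promoters (0.00896%). CTTTGA, the core of the Wnt-responsive TCF/LEF site, was in Atoh1 and in 13.9%, and CAGCTG, an E-box, in Msx3 and in 12.0%. TAATTA, a homeodomain core, was in none of the 8 and in 4.86%. These matches describe letters in a short window and are not binding sites shown to be used.

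**Figure D1:**
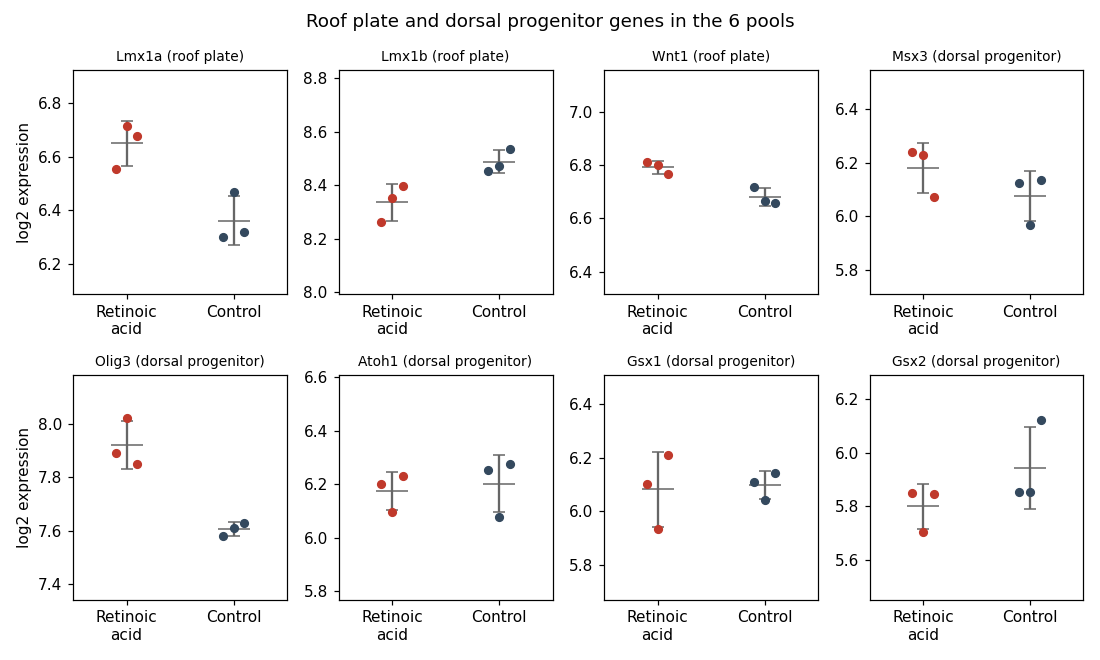
Log2 expression (y axis, each panel spanning the same number of log2 units around its own midpoint) of the 8 genes in the retinoic acid pools (left, red) and the control pools (right, dark). Points are pools, horizontal lines are means and bars are SD over 3 pools. The groups are apart in Lmx1a, Lmx1b, Wnt1, Olig3 and Gsx2, and overlap in Msx3, Atoh1 and Gsx1.

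Among the roof plate genes, Lmx1a, a LIM homeobox factor needed for roof plate formation in mice, was measured on chromosome 13 between 83354523 and 83498511. Such positions of array rows are those of the deposited table and of an unstated build, so they do not line up with the GRCr8 positions of the promoters. It read 6.56, 6.72 and 6.68 log2 units in the retinoic acid pools, against 6.30, 6.47 and 6.32 in the control pools. Every retinoic acid pool was above every control pool, the nearest pair being retinoic acid 1 and control 2. Lmx1a averaged 6.65 ± 0.084 after retinoic acid and 6.36 ± 0.092 in controls (SD, n = 3 each). Its log2 difference was 0.29 ± 0.073 (SE), 1.22-fold with a 95% interval of 1.10 to 1.36, and it was called higher (limma, adjusted p = 0.017). The call rested on 3 pools a group: it was lost without control 1 (adjusted p = 0.082), control 3 (0.069), retinoic acid 2 (0.063) or retinoic acid 3 (0.058).

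Lmx1b, the paralog of Lmx1a, acts in the roof plate and also in the isthmus between midbrain and hindbrain and in dorsal limb mesenchyme. It was measured at chromosome 3, 12571947 to 12651590. It read 8.26, 8.35 and 8.40 in the retinoic acid pools, against 8.45, 8.47 and 8.54 in the control pools. All 3 retinoic acid pools were below all 3 control pools, by a narrow margin. The log2 difference was -0.15 ± 0.068 (SE) and was not called (limma, adjusted p = 0.20). Its 95% interval, -0.29 to -0.01, excludes 0 before adjustment over the rows.

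Lmx1a and Lmx1b thus had differences of opposite sign. Taken within each pool, the value of Lmx1a minus that of Lmx1b was -1.705, -1.634 and -1.718 in the retinoic acid pools, against -2.152, -2.004 and -2.217 in the control pools. This within-pool difference does not compare the abundance of the 2 transcripts, since probes differ in brightness. The shift was 0.44, with no overlap (two-sided exact permutation test, p = 0.10, the smallest 3 pools against 3 can give). Adjusted over the 2 pairs tested, Lmx1a with Lmx1b and Gsx1 with Gsx2, it was 0.20 by the same exact test.

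Wnt1, a secreted signal of the dorsal midline and the isthmus, was measured at chromosome 7, 137557836 to 137561883. It read 6.81, 6.80 and 6.76 in the retinoic acid pools, against 6.72, 6.67 and 6.66 in the control pools. The groups did not overlap, and the pools of each were close together. The log2 difference was small, 0.11 ± 0.066 (SE), with a 95% interval of -0.03 to 0.25, and was not called (limma, adjusted p = 0.36).

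In the dorsal progenitor genes, Olig3, a basic helix-loop-helix factor of the progenitors next to the roof plate, had the smallest p of the 8. It was measured at chromosome 1, 14568462 to 14570533. It read 7.89, 8.02 and 7.85 in the retinoic acid pools, against 7.58, 7.61 and 7.63 in the control pools. The control pools lay within a narrow range and every retinoic acid pool was above it. Olig3 averaged 7.92 ± 0.090 after retinoic acid and 7.61 ± 0.025 in controls (SD, n = 3 each). The log2 difference was 0.31 ± 0.070 (SE), 1.24-fold with a 95% interval of 1.12 to 1.37 (limma, adjusted p = 0.0075). Leaving out any single pool kept the call, at an adjusted p of at most 0.035. After the samples were aligned on spike-ins, which leaves 47 of all rows called, neither Olig3 nor Lmx1a was called (limma, both adjusted p = 1). In the authors' deposited table, whose adjustment ran over all rows, the adjusted p was 0.013 for Olig3 and 0.030 for Lmx1a.

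Msx3, a homeobox gene restricted to the dorsal neural tube in mice, was measured on chromosome 1 between 199845596 and 199848524. It read 6.24, 6.23 and 6.07 in the retinoic acid pools, against 6.12, 5.97 and 6.14 in the control pools. Retinoic acid 3 fell among the controls, so the groups overlapped. Its log2 difference was 0.10 ± 0.074 (SE), not called (limma, adjusted p = 0.47).

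Atoh1, the proneural factor of the progenitor domain beside the roof plate, was measured on chromosome 4 between 94109650 and 94111745. It read 6.20, 6.10 and 6.23 in the retinoic acid pools, against 6.26, 6.08 and 6.27 in the control pools. The groups covered almost the same range. Its log2 difference was -0.03 ± 0.074 (SE), with a 95% interval of -0.18 to 0.13 (limma, adjusted p = 0.89).

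Gsx1 and Gsx2 are paralogous homeobox factors of dorsal progenitors, and Gsx2 also patterns the ventral forebrain. They were measured on chromosome 12 between 8551150 and 8552445 (Gsx1) and on chromosome 14 between 35489441 and 35491165 (Gsx2). Gsx1 read 6.10, 5.93 and 6.21 in the retinoic acid pools, against 6.11, 6.04 and 6.14 in the control pools. Its groups overlapped, at a log2 difference of -0.02 ± 0.077 (SE; limma, adjusted p = 0.94). Gsx2 read 5.85, 5.70 and 5.84 in the retinoic acid pools, against 5.85, 5.85 and 6.12 in the control pools. Its groups were apart only in the third decimal, with 5.8505 in retinoic acid 1 and 5.8518 in control 2, and control 3 stood above the other pools. The log2 difference of Gsx2 was -0.14 ± 0.081 (SE), not called (limma, adjusted p = 0.33). The shift between Gsx1 and Gsx2 within pools was 0.13, which was not called (two-sided exact permutation test, p = 0.30).

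**Figure D2:**
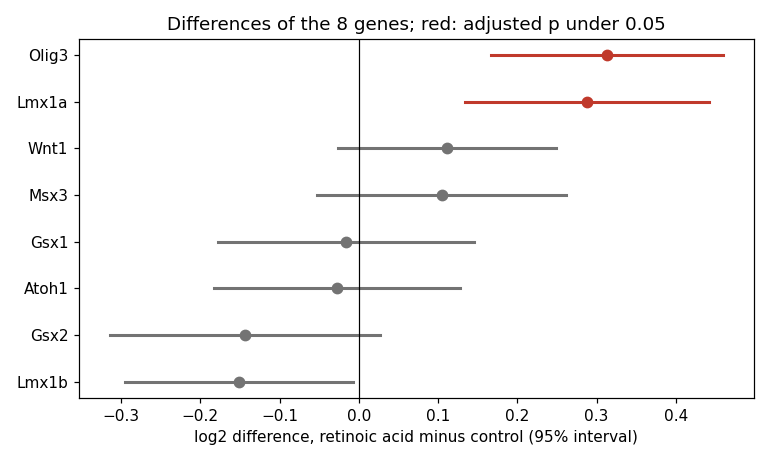
Log2 difference, retinoic acid minus control (x axis), of the 8 genes, with 95% intervals from limma. Red marks Olig3 and Lmx1a, whose adjusted p was under 0.05, at 0.31 and 0.29. The other 6 lie between -0.15 and 0.11.

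Dimness limits 4 of these readings. The table gives no detection call, so the 1219 olfactory receptor genes, which an embryonic neural cell is not known to use, served as a scale for dim rows, with the reservation that probes differ in brightness. Their mean levels had a median of 5.47 and a 95th percentile of 6.17. Msx3 (6.13), Gsx1 (6.09) and Gsx2 (5.87) lay below that percentile, and Atoh1 (6.19) just above it. Olig3 (7.76) and Lmx1b (8.41) were well above it, and Wnt1 (6.74) and Lmx1a (6.51) moderately so. Whether the 4 dim rows carried signal above background was not tested.

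The profile most like that of Olig3 over the 6 pools was that of Pfdn2, a prefoldin subunit (Pearson's r = 0.9986), followed by Slc39a1, a zinc transporter (0.9981), and Pax6 (0.9980), a factor of neural progenitors. These are the highest of all tested rows and describe the ranking only, since the group difference shapes them. Pax6 read 7.83, 8.03 and 7.81 in the retinoic acid pools, against 7.41, 7.49 and 7.50 in the control pools. As for Olig3, the highest value was that of retinoic acid 2 and the lowest that of control 1.

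Of 21 other roof plate and dorsal genes, 8 rose, 2 fell and 11 were not called, where 9.75% of all tested rows were called. The list median was 0.01. Zic2 and Pax3, transcription factors of the dorsal neural tube, rose by 0.89 ± 0.071 and 0.76 ± 0.075 (SE) on the log2 scale. In which cells of the pools the rises of this list took place was not tested. Msx1, a homeobox target of BMP signals and a relative of Msx3, read 9.45, 9.43 and 9.55 in the retinoic acid pools, against 8.90, 8.95 and 8.76 in the control pools. Msx2 also rose, by 0.31 (limma, adjusted p = 0.013), a call lost without retinoic acid 2 (adjusted p = 0.058). Msx3, whose row is within the dim range, was at 0.10 and not called. The BMP ligand gene Bmp5 rose by 0.47. The falls were those of Bmp4 (-0.37; limma, adjusted p = 0.0039), another BMP ligand gene, and Rspo1 (-0.31; adjusted p = 0.015), an enhancer of Wnt signals, named after their values were seen. Gdf7, a BMP-family ligand that is a textbook marker of the roof plate, was at 0.01 (adjusted p = 0.97) and Wnt3a, the other dorsal midline Wnt, at -0.06 (adjusted p = 0.67). Both rows lay only a little above the dim range, which limits these readings. Gdf7 averaged 6.28 after retinoic acid and 6.27 in controls, and Wnt3a 6.29 and 6.35. The count of 8 rises became 5 without retinoic acid 2 and 2 after the samples were aligned on spike-ins. The fall of Rspo1 was not called with control 2 left out (adjusted p = 0.091) or with retinoic acid 1 left out.

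Among 10 genes of progenitor domains next to those of the 8, Sp8 (0.51) and Pax6 (0.42) rose, both of which also mark other progenitors. Neurog1, Ptf1a, Dbx1 and Dbx2, factors of other dorsal and intermediate domains, had differences from -0.03 to 0.04, none of them called. Ptf1a, Dbx1 and Dbx2, with group means of 6.13 to 6.17, lay within the dim range of the olfactory receptor rows. Their lack of a difference therefore says little about these domains.

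Of 12 genes of dorsal interneurons 3 fell and none rose. Lhx9 (-0.63) and Lhx2 (-0.47), factors of the interneurons that arise from Atoh1 progenitors, fell, and both are also genes of the forebrain and of limb mesenchyme. Isl1 (-0.40), which also marks motor neurons and heart progenitors, fell as well. Barhl1 and Barhl2, other factors downstream of Atoh1, were at 0.02 and 0.12 and were not called. Barhl2, at 6.30 after retinoic acid and 6.17 in controls, lay near the top of the dim range, which limits its reading. The list median was 0.02.

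Of 7 genes of ventral progenitors and the floor plate measured, Nkx6-1 (0.42) and Olig2 (0.34) rose and the floor plate and notochord signal Shh fell (-0.46). Of 9 isthmus, midbrain and hindbrain genes measured, Pax8 (0.51), Gbx2 (0.36) and Otx2 (0.28) rose and none fell. Among those not called were Fgf8 (-0.03), En1 (0.13) and En2 (-0.10), which share the isthmus with Wnt1 and Lmx1b. Otx2, itself within the dim range (5.96 after retinoic acid and 5.68 in controls), lost its call without any one of 3 pools (at most adjusted p = 0.14, without control 2).

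The signals that act on the 8 genes were represented by their receptors and targets. Of 13 BMP receptor and target genes 3 rose and none fell, all of them Id genes, which encode inhibitors of basic helix-loop-helix factors: Id1 (0.70), Id3 (0.39) and Id4 (0.27). The Id4 call was lost when any one of 5 pools was left out. None of the 9 BMP receptor and Smad genes among them was called. After quantile normalization (limma, adjusted p = 0.027) or cyclic loess (0.029) Smad5, which carries BMP signals to the nucleus, was called lower. Of 8 Wnt targets, Sp5 rose (0.37), while Axin2, a general target of the pathway, was at 0.19 and not called (limma, adjusted p = 0.11).

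**Figure D3:**
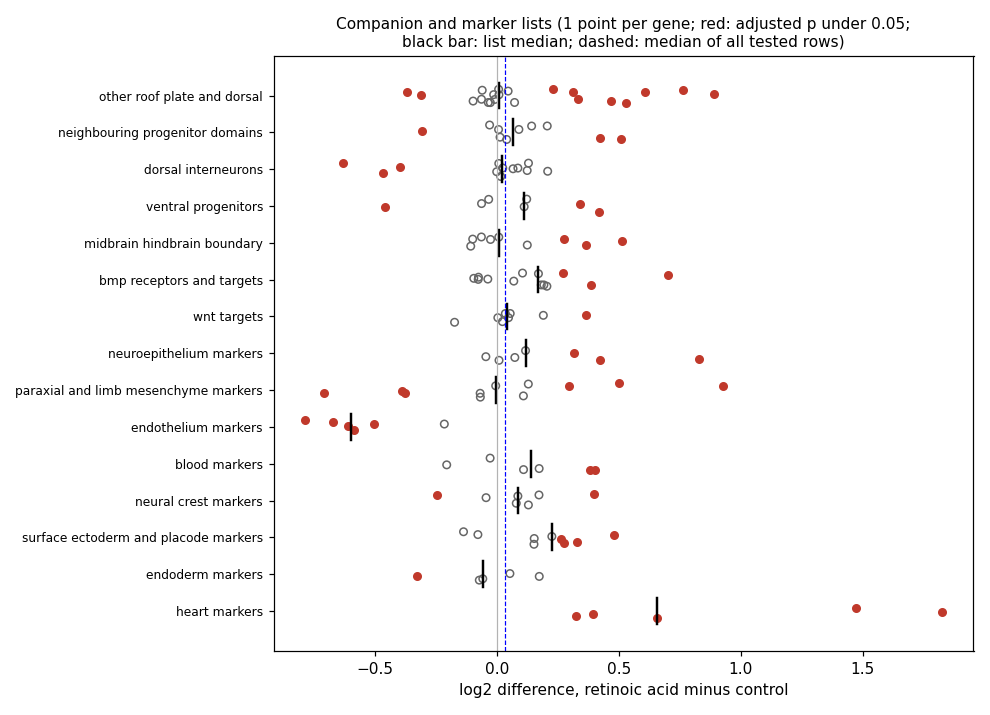
Log2 difference, retinoic acid minus control (x axis), of genes in the 15 lists beside the 8 genes (y axis). Each point is a gene, red where the adjusted p was under 0.05. Black bars are list medians, which run from -0.60 in endothelium markers to 0.66 in heart markers, and the dashed line is the median of all tested rows, 0.03.

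Some markers of the labelled cell type and of other types also differed between the groups, in both directions. Of 7 neuroepithelium markers measured, Sox2 (0.83), Pax6 and Fabp7 (0.32) rose and none fell. Cdh2 (0.12), Msi1 (0.07), Nes (0.01) and Hes5 (-0.04) were not called. Sox1 and Sox3 were not analysed here. Fabp7 was not called with control 1 left out (adjusted p = 0.071) or with retinoic acid 2 left out. The summed level of the 7 was 11.71 to 11.80 log2 units in the retinoic acid pools, against 11.46 to 11.60 in the controls. Because linear values are added, Cdh2, the brightest of the 7 (10.77 after retinoic acid, 10.65 in controls), weighs most in this sum. The markers thus do not count equally in it. Relative to the summed level in the same pool, Olig3 was -3.83, -3.78 and -3.87 in the retinoic acid pools, against -3.95, -3.99 and -3.83 in the control pools. On this scale the groups overlapped and the log2 difference of Olig3 was 0.10 (two-sided exact permutation test, p = 0.20). That of Lmx1a was 0.07, also with overlap (exact p = 0.30). This scale was added after the values were seen, and 3 pools against 3 cannot give a p below 0.10. In pools of cells, more cells of a type and more RNA per cell cannot be told apart.

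Endothelium markers fell in 5 of 6 measured, with a summed level of 10.79 to 10.99 after retinoic acid and 11.44 to 11.54 in controls. Heart markers rose in 5 of 5, with a summed level of 10.38 to 10.45 after retinoic acid and 9.33 to 9.36 in controls. Of 11 markers of paraxial and limb mesenchyme, a tissue that also uses Lmx1b, 3 rose and 3 fell. The rises were those of Meox1 (0.93), Meox2 (0.50) and Tcf15 (0.30), the last not called without control 2 (limma, adjusted p = 0.058). The falls were those of Col1a1 (-0.71), Pdgfra (-0.39) and Col3a1 (-0.37). The summed level of the 11 markers was 12.00 to 12.08 after retinoic acid and 12.10 to 12.20 in controls. Surface ectoderm and placode markers rose in 4 of 9 (11.28 to 11.41 after retinoic acid, 11.09 to 11.21 in controls). That count of 4 became 1 without control 2, Grhl3 remaining, and 2 without any one of 4 other pools, after quantile normalization, cyclic loess or median centring. Blood markers rose in 2 of 6 (14.65 to 14.80 after retinoic acid, 14.37 to 14.55 in controls), and the brighter of that pair, Hbe1, was no longer called after quantile normalization (adjusted p = 0.52) and turned to just below 0 after cyclic loess (adjusted p = 0.99). Neural crest markers had 1 rise and 1 fall among 7 (10.412 to 10.504 after retinoic acid, 10.415 to 10.517 in controls), where the call of the fall was lost without any one of 5 pools, and endoderm markers 1 fall among 5 (11.15 to 11.18 after retinoic acid, 11.18 to 11.27 in controls). The defining endothelial gene Cdh5 fell by 0.78 and the heart gene Myl7 rose by 1.82. Some markers of other types were as bright as those of the neuroepithelium or brighter. Hbe1 averaged 13.97 after retinoic acid and 13.58 in controls, and the mesenchyme marker Prrx1 10.80 and 10.87. Cdh2 averaged 10.77 and 10.65, and Sox2 8.99 and 8.17. Others were dimmer than Sox2, such as the blood marker Gata1 (7.48 and 7.51). Probes differ in brightness, so these levels give no share of cells, and the purity of the sorted cells was not tested. The part of these other cell types in the differences of the 8 genes was not tested.

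The rows that lie near the 8 genes in the file's coordinates were also read. Within 100 kb there were 34 other rows, 25 of them named. Of the named rows 5 were called, where 9.75% of all tested rows were called. Gsx2, not called itself, lies between 2 called neighbours on chromosome 14. Chic2, a membrane-associated palmitoylated protein gene 31.6 kb away, rose by 0.42. Pdgfra, the growth factor receptor gene 71.3 kb away and a mesenchyme marker, fell by 0.39. It read 9.14, 9.35 and 9.18 in the retinoic acid pools, against 9.67, 9.64 and 9.52 in the control pools. Near Wnt1, Arf3 (47.6 kb, 0.38) and Rhebl1 (83.7 kb, 0.29) rose, while Wnt10b, the Wnt gene 10.8 kb from it, was at 0.14 (limma, adjusted p = 0.21). Near Gsx1, Rpo1-3 (96.3 kb) rose by 0.40. No row lay within 100 kb of Olig3, and the neighbour of Lmx1a, the retinoid receptor gene Rxrg, was at 0.00 (limma, adjusted p = 0.98). Upstream of Lmx1b on the same strand, an unnamed row (12681579 to 12726973) averaged 9.18 ± 0.096 after retinoic acid and 8.96 ± 0.11 in controls (SD, n = 3 each). Its difference of 0.22 ran opposite to that of Lmx1b and was not called (limma over all main rows, adjusted p = 0.11).

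**Figure D4:**
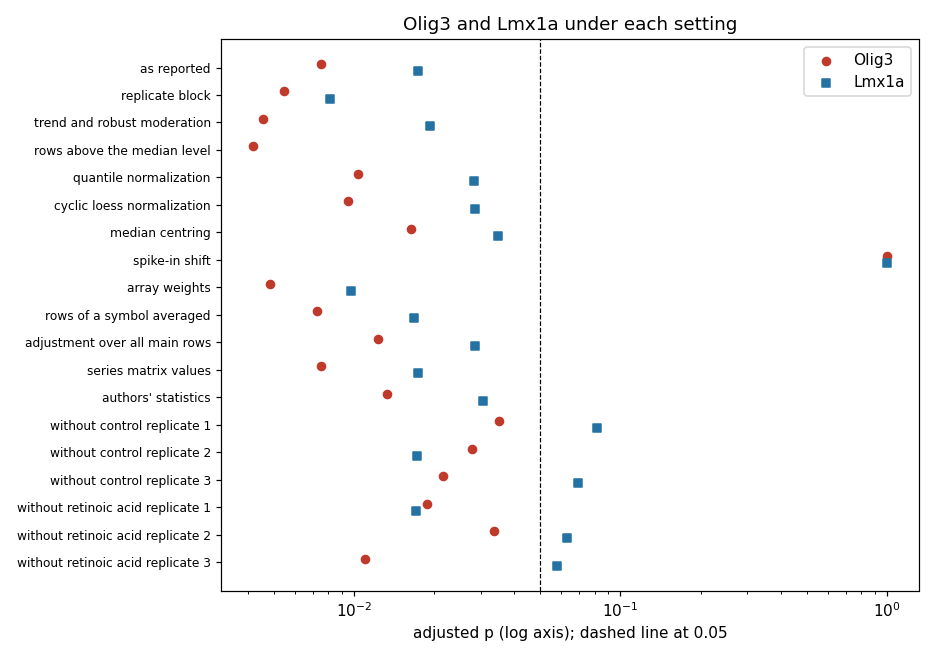
Adjusted p (x axis, log scale) of Olig3 (red circles) and Lmx1a (blue squares) in the reported fit and under each alternative (y axis), with a dashed line at 0.05. Olig3 stays left of the line except after the spike-in shift, and Lmx1a crosses it when any one of 4 pools is left out and after the spike-in shift. Lmx1a has no point in the fit limited to bright rows.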

How the data were processed

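The authors deposited 1 table of 29656 rows with a log2 expression value per sample, normalized by a method that the sources used here do not name. The same deposited table holds t and B scores and p-values. Limma is the tool named, with no version, per the submitters' processing notes. The log2 scale was read from the range, 4.77 to 14.35, and from the deposited log2 fold column, which equals the difference of group means to within 8e-09. The series value table holds identical values. Array controls (167 rows) and unnamed rows (9231) were left out, which leaves 20258. These were fitted in R 4.3.3 with the lmFit and eBayes functions of limma 3.58.1, without a block, as the difference retinoic acid minus control. Tests are two-sided and intervals are limma's. The fit was tested on simulated data. Figures were drawn with matplotlib 3.10.9.

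The 8 genes, the lists and the alternatives were chosen with earlier results of these data known. Where a symbol had several rows, the one of highest mean was used. From each list, up to 4 called genes by smallest p could be named, or 2 where none was called, and others named for their role were added after their values were seen. Summed levels are log2 of the sum of linear values over a list. Nothing says whether pools share litters, so the spread measured is that between these pools. The SE, intervals and p-values of limma are moderated, combining a row's own spread with a spread taken from all rows fitted. Wnt1, for example, had SDs of 0.024 after retinoic acid and 0.033 in controls, and an SE of 0.066. Arrays carry no read depth, and their number limits the precision. The result of 1 gene of the neighbouring progenitor domains is not reported here.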

Additional observations from a re-analysis of the deposited data

How the results depend on the processing

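The alternatives concern scaling, moderation, weights, the set of rows and single pools. Of the 2 genes called, 1 remained when only rows above the median level were adjusted (Olig3, since Lmx1a lies below that level) and 0 after each sample was aligned on the mean of the 23 spike-ins meant to be equal in both mixes, where 47 rows were called in all. After that shift Olig3 was at 0.35 and Lmx1a at 0.32 (both adjusted p = 1). The spike-in groups come from general knowledge of the product. Another 23 spike-ins, meant to be 4-fold lower in the retinoic acid mix, had a median difference of -0.50 log2 units as deposited. That is a smaller difference than 4-fold. The median takes in all 23 whatever their level, so it does not measure this at the levels of Olig3 or Lmx1a. The factors given here are array readings that could understate a difference in RNA, which was not tested. Leaving out single pools gave 1 to 2 called genes and 1252 to 1589 called rows, against 1975. Atoh1 and Gsx1, close to 0 throughout, changed sign after the spike-in shift (0.0090 and 0.02004), Gsx1 also with array weights (0.0172), and without single pools they ranged from -0.0894 to 0.0124 and from -0.0814 to 0.0579. Calls were 78.9% higher as deposited (1558 higher, 417 lower), 51.2% after quantile normalization (823 and 785) and 52.8% after cyclic loess (859 and 767), with Olig3 and Lmx1a called higher in both. Whether replicate numbers pair the pools is not settled by these values. Deviations of same-numbered pools correlated at -0.11, 0.23 and 0.24. Retinoic acid 1 correlated best with control 3 (0.20), whereas retinoic acid 2 and retinoic acid 3 each correlated best with the control of the same number. With the replicate number as a block 2416 rows and the same 2 of the 8 genes were called.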
